A study of Homo sapiens with 4 samples.

Results

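Replication-dependent histone genes encode the linker histone H1 and the core histones H2A, H2B, H3 and H4 that cells make when they copy their DNA. They were taken as the rows of a gene count table whose symbol names cluster HIST1, HIST2 or HIST3, a histone class and a closing run of letters. The rule found 69 of 58219 rows, with 68 symbols because HIST1H3D stood in 2 rows. By class these were 6 H1, 14 H2A, 21 H2B, 14 H3 and 14 H4 rows, and by cluster 56 lay in HIST1, 11 in HIST2 and 2 in HIST3. RNA came from cultures of U87, an established human glioblastoma line bought from ATCC, which is a single line and stands for no tumour in general. Treated cells spent 24 h in medium with 50 mM carnosine, the dipeptide beta-alanyl-L-histidine (2 libraries), and control cells the same 24 h in medium with none (2 libraries). Both groups grew in high-glucose DMEM without pyruvate, with fetal bovine serum, GlutaMAX and antibiotics, and had been seeded 24 h before the medium was changed. The comparison asks which transcripts differ when carnosine is present, and it has no time course, other dose or second cell line. The libraries held total RNA depleted of ribosomal RNA, so that mRNAs without a poly(A) tail were counted as well.

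In animal cells these genes lie in dense clusters, most of them have no intron, and their mRNAs end in a conserved stem-loop in place of a poly(A) tail. The stem-loop is bound by SLBP, and a machinery built on the U7 small nuclear RNA cuts the transcript just past it. NPAT, a coactivator phosphorylated by cyclin E and CDK2, switches the clusters on as S phase begins, and the mRNAs are degraded quickly when DNA synthesis stops. Their level is therefore often read as a sign of how many cells are copying DNA, which the replacement histone genes outside the clusters do not follow in the same way.

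The stem-loop was looked for in the annotated transcripts of GENCODE 29 (GRCh38), and 29 of the 69 rows held it. These lines are shown because the 16-base hairpin, in capitals with 5 bases on each side, is the feature that sets these transcripts apart from other mRNAs. DNA letters are given, 5′ to 3′ on the transcript strand.
HIST1H2AE (chr6:26217412-26217437, plus strand): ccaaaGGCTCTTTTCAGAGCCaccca
HIST1H2BD (chr6:26158582-26158607, plus strand): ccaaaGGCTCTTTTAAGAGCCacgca
HIST1H4E (chr6:26204996-26205021, plus strand): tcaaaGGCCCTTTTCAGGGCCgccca
HIST2H4B (chr1:149860764-149860789, minus strand): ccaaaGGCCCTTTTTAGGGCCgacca
HIST1H3E (chr6:26225591-26225616, plus strand): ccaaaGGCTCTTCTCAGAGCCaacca
HIST1H2AG (chr6:27133510-27133535, plus strand): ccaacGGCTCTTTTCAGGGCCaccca
The form of HIST1H2AE was found in 16 rows of classes H2A, H2B and H3, and that of HIST1H2BD in 4. The forms of HIST1H4E (4 rows) and HIST2H4B (3 rows) were found in H4 genes only among these 29 rows, and those of HIST1H3E and HIST1H2AG in 1 row each. In 1 of the 16, HIST1H2BN, the match lies past the overlapping HIST1H2AL. The other 40 rows held no match in the annotated transcript, which says nothing of the mRNA itself, since many of these gene models stop at the stop codon.

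Gene counts summed to 57728762 and 51632970 in carnosine replicates 1 and 2 and to 71766267 and 59155538 in control replicates 1 and 2. The histone rows took 0.474% and 0.670% of these counts in the carnosine libraries and 0.807% and 0.697% in the controls. Levels are given as counts-per-million values (CPM), scaled by the TMM method over all genes. The glioblastoma markers VIM, CD44, TNC and FN1 stood at 1107 to 7420 CPM in every library, NES at 23.7 to 44.0 CPM, CHI3L1 at 116 to 175 CPM and OLIG2 at 1.75 to 4.11 CPM. The astrocyte markers GFAP and S100B reached at most 0.278 and 0 CPM, and SOX2 had at most 2 counts. Of the 8 tested in the glioblastoma list, 1 passed in edgeR, CHI3L1, higher with carnosine (adjusted p = 0.0243), and 0 were higher without control replicate 1 or without control replicate 2. DESeq2 called 2 of the 8 lower and 1 higher. Of the markers of other cell types, PTPRC and MBP reached at most 0.136 and 0.0998 CPM and RBFOX3 had 0 counts. EPCAM had 1.70 and 1.77 CPM with carnosine and 1.18 and 1.06 CPM without it, and PECAM1 had 6.07 and 5.26 CPM with carnosine and 2.08 and 2.61 CPM without it (edgeR adjusted p = 0.0215, a call lost without control replicate 1). The labels do not say that replicates came from separate cultures, so p-values measure the spread between these libraries, which may be technical.

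The libraries of each group stood apart from one another in these genes, which bears on every result that follows. Carnosine replicate 1 was below carnosine replicate 2 in 60 of the 62 histone genes that could be tested, with a median log2 ratio of -0.57, whereas the median over all 16340 genes tested was -0.0047. The 5th and 95th percentiles of that ratio over all genes were -0.65 and 0.84. Control replicate 1 was above control replicate 2 in 57 of the 62, with a median log2 ratio of 0.20 against -0.0013 over all genes. The histone genes thus shared a direction within a group as well as between groups. What sets the replicates apart was not tested.

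**Figure D1:**
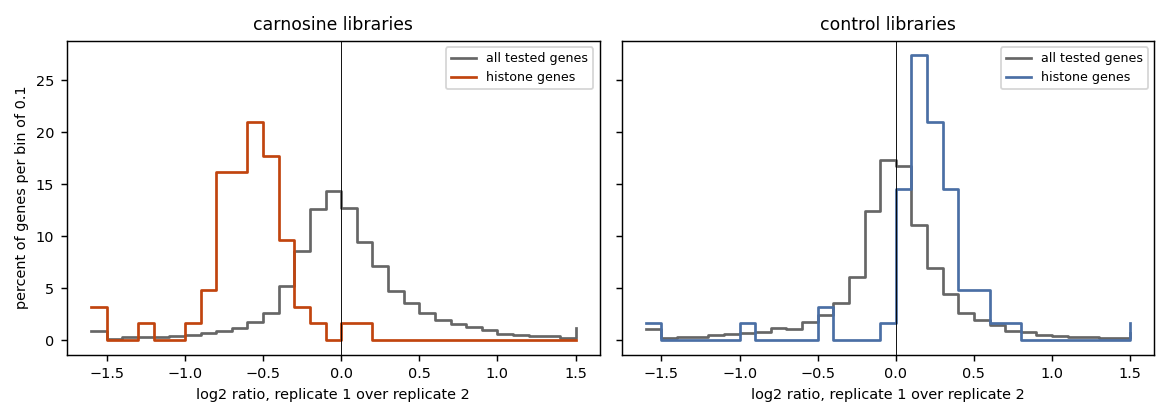
Distribution of the log2 ratio of replicate 1 over replicate 2 (horizontal axis) within the carnosine libraries (left) and the control libraries (right), as percent of genes per bin of 0.1. Values beyond 1.5 in either direction are gathered in the end bins. The 62 histone genes (coloured) centre on -0.57 in the carnosine libraries and on 0.20 in the controls, while all 16340 tested genes (grey) centre near 0.

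With all 4 libraries, most histone genes of each of the 5 classes had lower values with carnosine, but only 6 differed beyond the spread between libraries by the test used here. Of the 62 genes tested, 56 (90.3%) had a log2 fold change below 0, against 49.9% of all genes, and the median was -0.48, against 0.0009 over all genes. In edgeR's quasi-likelihood test, with Benjamini-Hochberg adjustment over all 16340 genes and a threshold of 0.05, 6 of the 62 (9.68%) fell and 0 rose. Of all genes 8.31% passed in either direction, 4.36% lower and 3.95% higher. The 6 were HIST2H3D, HIST1H1A, HIST1H3A, HIST1H3C, HIST1H2AJ and HIST1H2BI. In bulk RNA, fewer cells that express a gene and less of its RNA per cell cannot be told apart.

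Both carnosine libraries lay under both controls in 38 of the 62 genes (61.3%), which was true of 28.8% of all genes. The reverse order held for 1 histone gene, HIST3H2BB, and for 27.8% of all genes. At an unadjusted edgeR p under 0.05, 26 histone genes were lower (41.9%, against 14.1% of all genes) and 1 was higher (1.61%, against 13.3%). DESeq2 called 19 lower (30.6%, against 7.1% of all genes) and 1 higher (1.61%, against 6.29%). Without a filter on low counts, edgeR called 38 lower (61.3%, against 6.25% of 26103 genes) and 1 higher (1.61%, against 5.8%). With limma-voom 7 were called lower (11.3%, against 4.25%) and 0 higher (against 3.84% of all genes, with 1 at an unadjusted edgeR p under 0.05).

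The count of calls turned on the library that was left out. Without carnosine replicate 1, edgeR called 5 histone genes lower (8.06%, against 3.94% of all genes) and 1 higher, the median was -0.19, and 47 of 62 lay below 0. Without carnosine replicate 2 it called 42 lower (67.7%, against 5.03%), with a median of -0.82 and 60 of 62 below 0. Leaving out control replicate 1 gave 3 calls (4.84%, against 1.72%) and a median of -0.35, and leaving out control replicate 2 gave 11 (17.7%, against 1.57%) and a median of -0.57. The direction of the median was therefore the same whichever library was left out, and its size was not. Without carnosine replicate 1 the median was -0.06 for H1, with 3 of 6 below 0, and -0.06 for H4, with 8 of 11 below 0.

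**Figure D2:**
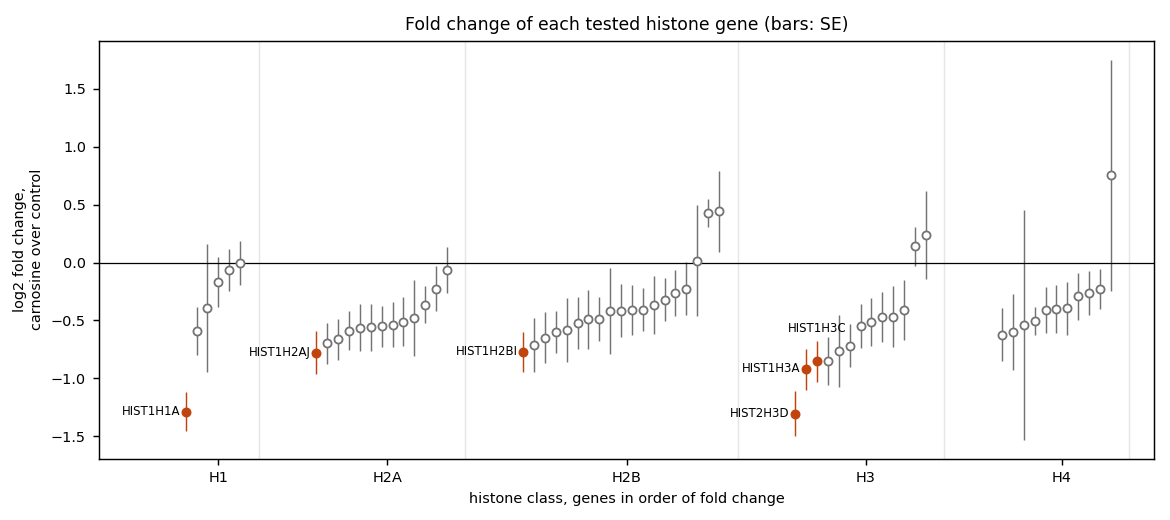
Log2 fold change, carnosine over control, of each of the 62 tested histone genes (vertical axis), ordered within each class, with bars of 1 SE on each side. Filled points mark the 6 genes past the adjusted threshold, all below 0, from -1.30 for HIST2H3D to -0.77 for HIST1H2BI.

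The genes that fell came from 4 of the 5 classes, were annotated as single exons that hold the coding sequence, and had mean counts of 1578 to 10536 per library. In GENCODE 29 on GRCh38 they lie at chr1:149813271-149813681 (HIST2H3D, minus strand), chr6:26017085-26017732 (HIST1H1A, minus), chr6:26020490-26020900 (HIST1H3A, plus), chr6:26045411-26045821 (HIST1H3C, plus), chr6:27814354-27814740 (HIST1H2AJ, minus) and chr6:26272976-26273356 (HIST1H2BI, plus). The promoters of 3 of them are shown with that of HIST1H1C, an H1 gene whose log2 fold change was -0.06, because they show what promoters of these classes share and do not share. Each runs from 250 bases before the transcript start to 50 after it (RefSeq, GRCh38.p14). Capitals mark letters of the octamer ATTTGCAT, the CCAAT box, the TATA box TATAAA and the H1 box AAACACA on either strand, and no marked match overlaps another.
HIST1H1A promoter (chr6:26017738-26018037, minus strand): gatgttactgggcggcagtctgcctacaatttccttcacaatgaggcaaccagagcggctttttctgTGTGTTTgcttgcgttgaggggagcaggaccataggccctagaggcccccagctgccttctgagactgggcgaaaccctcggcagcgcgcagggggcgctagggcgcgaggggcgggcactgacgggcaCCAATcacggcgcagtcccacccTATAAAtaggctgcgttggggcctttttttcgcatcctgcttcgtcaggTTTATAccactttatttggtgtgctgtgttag
HIST1H1C promoter (chr6:26056421-26056720, minus strand): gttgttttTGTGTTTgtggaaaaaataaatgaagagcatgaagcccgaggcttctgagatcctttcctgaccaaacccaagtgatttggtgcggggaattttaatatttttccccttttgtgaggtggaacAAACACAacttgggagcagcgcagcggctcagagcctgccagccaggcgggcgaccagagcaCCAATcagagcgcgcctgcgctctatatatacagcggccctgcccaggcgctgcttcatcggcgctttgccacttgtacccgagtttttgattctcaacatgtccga
HIST1H2BI promoter (chr6:26272681-26272980, plus strand): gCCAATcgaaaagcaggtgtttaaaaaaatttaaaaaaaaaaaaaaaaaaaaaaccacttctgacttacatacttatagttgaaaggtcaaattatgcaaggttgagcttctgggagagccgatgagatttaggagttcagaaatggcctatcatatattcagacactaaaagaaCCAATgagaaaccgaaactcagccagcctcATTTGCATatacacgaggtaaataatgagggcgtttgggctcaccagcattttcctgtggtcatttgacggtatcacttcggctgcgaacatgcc
HIST2H3D promoter (chr1:149813644-149813943, minus strand): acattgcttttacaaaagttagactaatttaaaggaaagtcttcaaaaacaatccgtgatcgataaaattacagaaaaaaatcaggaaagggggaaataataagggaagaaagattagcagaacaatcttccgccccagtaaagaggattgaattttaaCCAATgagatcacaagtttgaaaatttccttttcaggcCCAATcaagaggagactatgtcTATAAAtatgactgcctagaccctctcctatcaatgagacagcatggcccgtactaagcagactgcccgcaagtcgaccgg
HIST1H1A and HIST1H1C both held the H1 box and the CCAAT box, and TATAAA was found in HIST1H1A and not in HIST1H1C. Among the other H1 genes, HIST1H1D and HIST1H1E held TATAAA (log2 fold changes of -0.17 and -0.0016). HIST1H1B and HIST1H1T did not (-0.59 and -0.39). A link between these boxes and the fold changes was not tested. The octamer stood in the promoter of HIST1H2BI and in none of the other 3 shown.

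Promoters were matched for 60 of the 69 rows. The octamer, which binds POU2F1, was found in 11 of 13 H2A and 14 of 18 H2B promoters and in 0 of the H1, H3 and H4 promoters, against 1.77% of 35116 RefSeq promoters. CCAAT was found in every matched promoter of H1, H2A, H2B and H3 and in 3 of 12 of H4, against 34.6% of all. TATAAA was found in 39 of 60, against 11.5% of all. The H1 box was found in 6 of 6 H1, 1 of 13 H2A and 2 of 11 H3 promoters and in 0 of the H2B and H4 promoters, against 5.64% of all. A match of letters is a description of these windows and shows no binding.

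Linker histone genes encode the H1 proteins that bind DNA where it enters and leaves the nucleosome, and their log2 fold changes ran from -1.29 to -0.0016. Of 6 tested, 1 fell (against 4.36% of all genes), and 3 had both carnosine libraries under both controls (against 28.8%). The median was -0.28 (-0.06 without carnosine replicate 1 and -0.55 without carnosine replicate 2). HIST1H1A had 14.2 and 20.3 CPM in carnosine replicates 1 and 2, against 42.2 and 41.9 CPM in control replicates 1 and 2. Both carnosine libraries lay below both controls, and the log2 fold change was -1.29 ± 0.17 (SE; edgeR adjusted p = 0.0142), which stayed past the threshold whichever library was left out (adjusted p 0.000598 to 0.00502). HIST1H1B had 185 and 289 CPM in the carnosine libraries, against 383 and 331 CPM in the controls, also without overlap, and its log2 fold change of -0.59 ± 0.21 (SE) did not pass (edgeR adjusted p = 0.125), though it did in DESeq2 (adjusted p = 0.0348). The other abundant H1 genes overlapped between groups. HIST1H1C had 404 and 590.0 CPM with carnosine and 542 and 497 CPM without it, HIST1H1D 126 and 209 CPM with carnosine and 192 and 185 CPM without it, and HIST1H1E 351 and 518 CPM with carnosine and 459 and 410.0 CPM without it. Carnosine replicate 2 was the highest of the 4 libraries for each of these, and carnosine replicate 1 the lowest. Their log2 fold changes were -0.06 ± 0.18, -0.17 ± 0.22 and -0.0016 ± 0.19 (SE), with edgeR adjusted p of 0.866, 0.669 and 0.997, and that of HIST1H1E was above 0 with 3 other scalings (0.0047 to 0.014). HIST1H1T, the testis form, was at 0.150 and 0.179 CPM with carnosine and 0.225 and 0.205 CPM without it, from 9 to 16 counts. Per kilobase of exon, HIST1H1C averaged 774 CPM with carnosine and 809 CPM without it, and HIST1H1E 576 and 577 CPM.

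**Figure D3:**
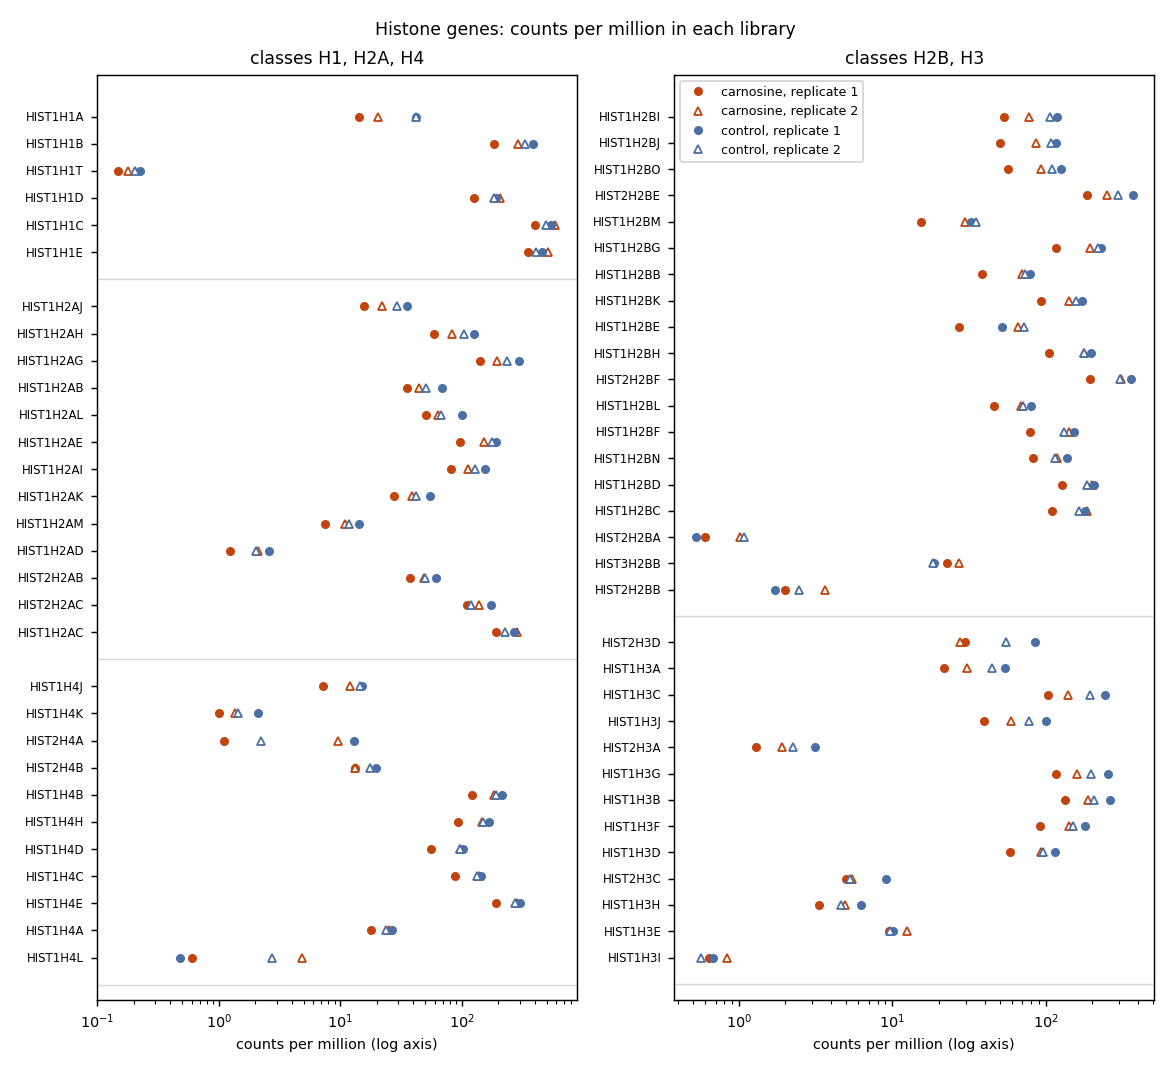
CPM of each tested histone gene in each library, on a log axis, ordered by fold change within a class. Carnosine replicate 1 (filled orange circles) is the lowest library for most genes. For HIST1H1A the carnosine libraries (14.2 and 20.3 CPM) lie well under the controls (42.2 and 41.9 CPM).

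H2A and H2B pair as dimers on the outside of the nucleosome, and many of their genes stand head to head with a shared promoter region. Among the 13 tested H2A genes the median log2 fold change was -0.55 (-0.31 without carnosine replicate 1). All 13 lay below 0, 1 fell (against 4.36% of all genes), and 10 had carnosine libraries under both controls (against 28.8%). HIST1H2AJ had 15.8 and 22.1 CPM in carnosine replicates 1 and 2, against 35.6 and 29.2 CPM in control replicates 1 and 2. Its groups did not overlap and its log2 fold change was -0.78 ± 0.18 (SE; edgeR adjusted p = 0.0490), a call that was lost without carnosine replicate 1 (adjusted p = 0.0720) or control replicate 1 (adjusted p = 0.123). HIST1H2AH, next in size, had 59.6 and 83.6 CPM in the carnosine libraries, against 127 and 105 CPM in the controls. Its log2 fold change of -0.70 ± 0.18 (SE) lay just outside the threshold (edgeR adjusted p = 0.0589) and passed in DESeq2 (adjusted p = 0.00436).

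Of the other H2A genes, 8 had the same order of libraries without passing in edgeR, with log2 fold changes between -0.66 and -0.37. DESeq2 called 4 of these, HIST1H2AG, HIST1H2AB, HIST1H2AE and HIST1H2AI (adjusted p 0.00586 to 0.0491). HIST1H2AG had 141 and 195 CPM with carnosine and 295 and 238 CPM without it. HIST1H2AB had 35.3 and 44.6 CPM with carnosine and 68.7 and 51.4 CPM without it, and HIST1H2AL 50.7 and 63.6 CPM with carnosine and 101 and 67.4 CPM without it. In these 3, as in the rest of the 8, carnosine replicate 2 lay nearer to control replicate 2 than to carnosine replicate 1. HIST1H2AE had 97.6 and 154 CPM with carnosine and 192 and 179 CPM without it, and HIST1H2AI 81.4 and 113 CPM with carnosine and 156 and 128 CPM without it. HIST1H2AK, whose exon lies wholly under an exon of HIST1H2BN on the other strand, had 27.8 and 39.3 CPM with carnosine and 54.7 and 42.4 CPM without it. HIST1H2AM had 7.43 and 10.9 CPM with carnosine and 14.2 and 11.9 CPM without it, and HIST2H2AB 37.6 and 48.9 CPM with carnosine and 61.8 and 49.6 CPM without it. The last 3 H2A genes overlapped between groups. HIST1H2AC had 191 and 286 CPM with carnosine and 272 and 226 CPM without it, with a log2 fold change of -0.06 ± 0.20 (SE). HIST2H2AC had 111 and 139.8 CPM with carnosine and 174 and 119.9 CPM without it (-0.23 ± 0.19, SE). HIST1H2AD had 1.25 and 2.1 CPM with carnosine and 2.62 and 2.03 CPM without it (-0.48 ± 0.33, SE). On the same strand, 98.0% of its exon lies under annotated exons of the gene in the second HIST1H3D row.

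H2B genes formed the largest class, with 19 tested and a median log2 fold change of -0.42 (-0.12 without carnosine replicate 1 and -0.84 without carnosine replicate 2). Of these, 16 lay below 0, 1 fell (against 4.36% of all genes), and 10 had carnosine libraries under both controls (against 28.8%). HIST1H2BI had 53.8 and 77.6 CPM in carnosine replicates 1 and 2, against 118 and 106 CPM in control replicates 1 and 2. Its groups did not overlap and its log2 fold change was -0.77 ± 0.17 (SE; edgeR adjusted p = 0.0436), with an adjusted p of 0.0757 without control replicate 1. HIST1H2BJ had 50.7 and 87.1 CPM with carnosine and 118 and 108 CPM without it, HIST1H2BO 56.7 and 93.1 CPM with carnosine and 125 and 109.5 CPM without it, and HIST2H2BE 185 and 253 CPM with carnosine and 369 and 296 CPM without it. In these 3 both carnosine libraries were lower, with log2 fold changes of -0.71 ± 0.23, -0.65 ± 0.22 and -0.60 ± 0.18 (SE), and none passed in edgeR (adjusted p 0.0855 to 0.114), while all 3 did in DESeq2 (adjusted p 0.0139 to 0.0287). HIST1H2BM had 15.4 and 29.9 CPM with carnosine and 32.8 and 34.9 CPM without it, HIST1H2BG 117 and 194 CPM with carnosine and 228 and 219 CPM without it, and HIST1H2BB 38.2 and 70.6 CPM with carnosine and 79.2 and 73.3 CPM without it. HIST1H2BK had 93.2 and 142 CPM with carnosine and 172 and 157 CPM without it, HIST1H2BH 105 and 177 CPM with carnosine and 197 and 179 CPM without it, and HIST1H2BL 45.9 and 69.1 CPM with carnosine and 80.8 and 71.4 CPM without it. In these 6, as in HIST1H2BJ, HIST1H2BO and HIST2H2BE, the carnosine libraries lay further apart than carnosine replicate 2 and the nearer control. The log2 fold changes of the 6 lay between -0.58 and -0.41.

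In another 6 H2B genes below 0 the groups overlapped. HIST1H2BE had 27.3 and 65.8 CPM with carnosine and 51.8 and 72.6 CPM without it, HIST2H2BF 195 and 309 CPM with carnosine and 362 and 307 CPM without it, and HIST1H2BF 79.1 and 142 CPM with carnosine and 152 and 132 CPM without it. HIST1H2BN had 82.5 and 119 CPM with carnosine and 137 and 115 CPM without it, HIST1H2BD 128 and 200.4 CPM with carnosine and 207 and 187 CPM without it, and HIST1H2BC 109.6 and 187 CPM with carnosine and 182 and 165 CPM without it. Carnosine replicate 1 was the lowest library in all 6, and log2 fold changes lay between -0.42 and -0.23. The 3 H2B genes above 0 included the pseudogenes HIST2H2BA, with 0.599 and 1.01 CPM with carnosine and 0.520 and 1.07 CPM without it, and HIST2H2BB, with 2.00 and 3.65 CPM with carnosine and 1.72 and 2.44 CPM without it, whose groups overlapped. HIST3H2BB, in the small HIST3 cluster, had 22.8 and 27.0 CPM in carnosine replicates 1 and 2, against 18.6 and 18.4 CPM in control replicates 1 and 2. It was higher in both carnosine libraries, with a log2 fold change of 0.43 ± 0.12 (SE) that did not pass (edgeR adjusted p = 0.0792), and passed without carnosine replicate 1 (adjusted p = 0.0465) and in DESeq2 (adjusted p = 0.0491).

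H3 pairs with H4 at the centre of the nucleosome, and 3 of the 6 calls came from H3 genes. Of 13 tested, 3 fell (against 4.36% of all genes), 11 lay below 0, and 9 had carnosine libraries under both controls (against 28.8%). The median log2 fold change was -0.55 (-0.86 without carnosine replicate 2). HIST2H3D had 29.6 and 27.5 CPM in carnosine replicates 1 and 2, against 85.6 and 55.3 CPM in control replicates 1 and 2. Its carnosine libraries lay close together and under both controls, the log2 fold change was -1.30 ± 0.20 (SE; edgeR adjusted p = 0.0177), and it passed whichever library was left out (-1.59 to -0.96, adjusted p 0.000258 to 0.0120). HIST1H3A had 21.8 and 30.7 CPM in the carnosine libraries, against 54.4 and 44.9 CPM in the controls, without overlap, and fell, with a log2 fold change of -0.92 ± 0.18 (SE; edgeR adjusted p = 0.0310). HIST1H3C had 103 and 141 CPM in the carnosine libraries, against 245 and 195 CPM in the controls, also without overlap. Its log2 fold change was -0.85 ± 0.18 (SE; edgeR adjusted p = 0.0373), and the call was lost without control replicate 1 (adjusted p = 0.0808). HIST1H3J had 39.4 and 59.2 CPM in the carnosine libraries, against 100.2 and 77.6 CPM in the controls and stood just outside the threshold, at -0.85 ± 0.21 (SE; edgeR adjusted p = 0.0523). It passed without carnosine replicate 2 (adjusted p = 0.00494) or control replicate 2 (adjusted p = 0.0170), and with all 4 libraries in DESeq2 (adjusted p = 0.00152) and limma-voom (adjusted p = 0.0489).

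A further 5 H3 genes had both carnosine libraries under both controls without passing in edgeR, of which DESeq2 called HIST1H3G and HIST1H3B (adjusted p = 0.00359 and 0.0402). HIST1H3G had 116 and 159 CPM with carnosine and 256 and 197 CPM without it (-0.72 ± 0.19, SE; edgeR adjusted p = 0.0625). HIST1H3B had 133 and 188 CPM with carnosine and 262 and 207 CPM without it, and HIST1H3F 92.0 and 141 CPM with carnosine and 182 and 150.3 CPM without it. HIST1H3D, counted under its second identifier, had 58.1 and 93.7 CPM with carnosine and 114 and 96.0 CPM without it. GENCODE 29 names that identifier AL031777.3, and its exons lie over those of HIST1H2AD as well as HIST1H3D. Its counts may therefore hold H2A transcripts. The log2 fold changes of HIST1H3B, HIST1H3F and this HIST1H3D row were -0.55 ± 0.19, -0.51 ± 0.21 and -0.47 ± 0.22 (SE). HIST2H3A and HIST2H3C are near-identical copies in a duplicated stretch of chromosome 1, where reads can match either, so each value is uncertain. HIST2H3A had 1.28 and 1.91 CPM with carnosine and 3.14 and 2.25 CPM without it, without overlap, and HIST2H3C 4.99 and 5.46 CPM with carnosine and 9.13 and 5.28 CPM without it, with overlap. HIST1H3H had 3.31 and 4.88 CPM with carnosine and 6.24 and 4.58 CPM without it, HIST1H3E 9.44 and 12.4 CPM with carnosine and 10.1 and 9.65 CPM without it, and HIST1H3I 0.632 and 0.834 CPM with carnosine and 0.675 and 0.562 CPM without it. These 3 overlapped between groups, with log2 fold changes of -0.41 ± 0.26, 0.14 ± 0.17 and 0.24 ± 0.38 (SE).

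H4 genes, nearly all of which encode the same protein, had 10 of 11 tested below 0 and a median log2 fold change of -0.40 (-0.06 without carnosine replicate 1 and -0.77 without carnosine replicate 2). The edgeR test and limma-voom called 0 in either direction, against 4.36% and 4.25% of all genes called lower. At an unadjusted edgeR p under 0.05, 2 were lower (against 14.1%), and DESeq2 called 1 lower (against 7.1%). HIST2H4B had 13.2 and 13.1 CPM in carnosine replicates 1 and 2, against 19.7 and 17.6 CPM in control replicates 1 and 2. Its carnosine libraries were nearly equal and under both controls. Its log2 fold change of -0.50 ± 0.12 (SE) lay just outside the threshold (edgeR adjusted p = 0.0521) and passed in DESeq2 (adjusted p = 0.0227). In its annotated transcripts, 97.1% of read-length stretches also occur in other genes. Reads can match HIST2H4B or its copy HIST2H4A, so each value is uncertain, and HIST2H4A did not share this order of libraries. HIST1H4J had 7.27 and 12.1 CPM with carnosine and 15 and 14.7 CPM without it, and HIST1H4K 0.998 and 1.35 CPM with carnosine and 2.1 and 1.45 CPM without it. HIST1H4B had 121 and 185 CPM with carnosine and 214 and 191 CPM without it, HIST1H4H 93.4 and 148 CPM with carnosine and 168 and 149.9 CPM without it, and HIST1H4D 56.4 and 96.1 CPM with carnosine and 103 and 97.3 CPM without it. These 5 had both carnosine libraries under both controls, by a margin smaller than the gap between the carnosine libraries. With HIST2H4B, that order held for 6 of the 11 (against 28.8% of all genes). HIST1H4C had 88.0 and 139 CPM with carnosine and 144 and 134 CPM without it, HIST1H4E 193 and 288 CPM with carnosine and 302 and 275 CPM without it, and HIST1H4A 18.1 and 25.2 CPM with carnosine and 26.9 and 23.8 CPM without it. In these 3 carnosine replicate 2 lay between the controls and carnosine replicate 1 below both. HIST2H4A, the copy of HIST2H4B, had 1.11 and 9.57 CPM with carnosine and 13.1 and 2.23 CPM without it, and HIST1H4L 0.599 and 4.85 CPM with carnosine and 0.478 and 2.76 CPM without it. Both differed several-fold between libraries of the same group, and their log2 fold changes of -0.54 ± 0.99 and 0.75 ± 1.0 (SE) carry no direction. HIST1H4I was too low to test, with 5 and 17 counts with carnosine and 11 and 8 counts without it. The other 6 untested rows, HIST1H2AA, HIST1H2BA, HIST3H2BA, HIST1H4F, HIST1H4G and the first identifier of HIST1H3D, had at most 2 counts in a library, and a count of 0 allows up to 3 counts, or 0.0422 to 0.0596 CPM.

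Summed over a class, transcripts were lowest in carnosine replicate 1, and carnosine replicate 2 lay near or among the controls. H1 genes summed to 1081 and 1626 CPM with carnosine and 1619 and 1465 CPM without it. H2A genes summed to 858 and 1203 CPM with carnosine and 1554 and 1249.9 CPM without it, and H2B genes to 1408 and 2249 CPM with carnosine and 2633 and 2355 CPM without it. H3 genes summed to 613 and 866 CPM with carnosine and 1329 and 1046 CPM without it, and H4 genes to 593 and 923 CPM with carnosine and 1009 and 911 CPM without it. H2A, H2B and H3 sums were below both controls in both carnosine libraries, and H1 and H4 sums overlapped. The ratio of the mean sums was lowest for H3 at 0.623, followed by H2B and H2A at 0.733 and 0.735, H4 at 0.790 and H1 at 0.878. Over all rows the sums were 4552 and 6867 CPM with carnosine and 8144 and 7026 CPM without it, a ratio of 0.753. Sums over genes get no test here, because the genes share their libraries.

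Ratios within a library do not depend on how much histone RNA that library held in all. H3 over H4 transcripts stood at 1.03 and 0.938 with carnosine, against 1.32 and 1.15 without it. H1 over all core histones stood at 0.311 and 0.310 with carnosine, against 0.248 and 0.263 without it. Both ratios separated the groups, in opposite directions, and with 2 libraries a group an exact permutation test cannot go below p = 0.333. H2A over H2B was 0.609 and 0.535 with carnosine and 0.590 and 0.531 without it, and here the groups overlapped. HIST1H1C made up 8.89% and 8.59% of all histone counts with carnosine and 6.65% and 7.07% without it, and HIST1H1E 7.71% and 7.54% with carnosine and 5.64% and 5.84% without it.

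**Figure D4:**
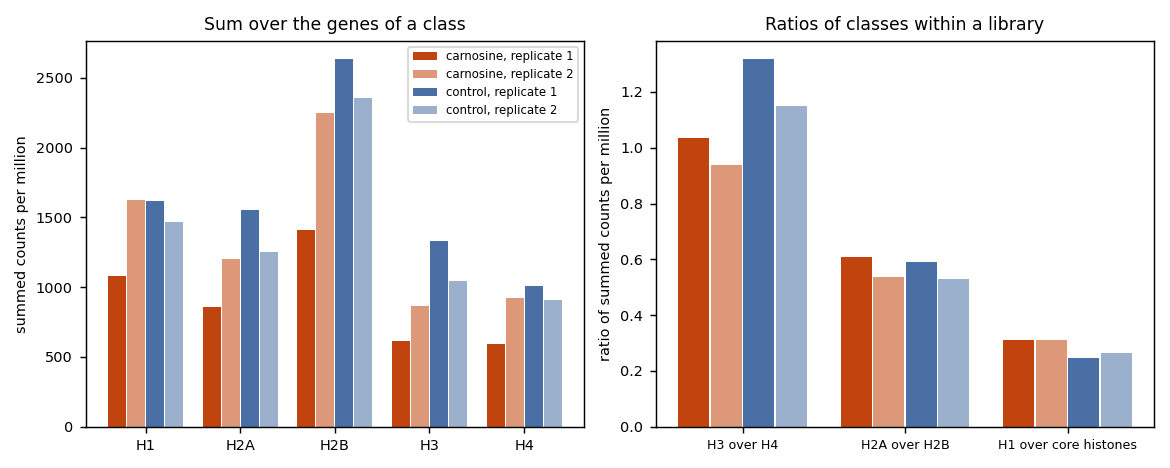
Left, summed CPM of the genes of each histone class in each library; right, ratios of class sums within a library. Carnosine replicate 1 has the lowest sum in every class, and H3 over H4 is lower (1.03 and 0.938 against 1.32 and 1.15) and H1 over core histones higher in both carnosine libraries than in both controls.

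With all 4 libraries, the 50 tested HIST1 genes showed a median of -0.49 on the log2 scale with 5 that fell (against 4.36% of all genes). The 11 HIST2 genes showed -0.47 with 1 that fell, and the only tested HIST3 gene 0.43. Genes separated by at most 500 kb formed 7 neighbourhoods in GENCODE 29 (GRCh38). The largest, chr6:25726132-26285638, held 35 rows, 30 of them tested, with a median of -0.41 and 4 that fell, among them the adjoining HIST1H1A and HIST1H3A. The 4 tested genes of chr6:27125897-27147515 had a median of -0.68 and 0 calls in edgeR and limma-voom. All 4 were lower at an unadjusted edgeR p under 0.05 (against 14.1% of all genes), and 3 passed in DESeq2 (against 7.1% lower). The 16 of chr6:27807444-27893843 had a median of -0.56 and 1 that fell. On chromosome 1 the 9 genes of chr1:149782689-149887916 had a median of -0.50 and 1 that fell. HIST2H2BA, HIST2H2BB and HIST3H2BB lie elsewhere on chromosome 1.

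Because histone genes resemble one another, each gene's annotated transcripts were compared with those of all other genes. Windows of 101 bases, the read length, were matched on either strand. Windows are also shared where gene models overlap at the same place, as for HIST1H2AK and HIST1H2AD, so sharing is not similarity alone. Of 69 rows, 43 shared no window with another gene. Among the 38 of these that were tested the median was -0.41 on the log2 scale, with 35 below 0. Of the 38, 4 fell (HIST1H1A, HIST1H2BI, HIST1H3A and HIST1H3C), against 4.36% of all genes. In 14 rows at least 50% of windows were shared, and the 13 tested had a median of -0.54 and 2 that fell. These were HIST2H3D (50.2% of windows) and HIST1H2AJ (80.8%), whose counts are the less certain. Counts of HIST2H4B (97.1%) and its copy HIST2H4A (94.8%), also among the 14, are uncertain in the same way. Between coding sequences of equal length in a class, identity had a median of 85.2% for H2A, 89.8% for H2B, 85.2% for H3 and 84.0% for H4. The first identifier of HIST1H3D had 0 counts in every library, and its exon lies wholly under exons of the second. In 16 rows exons lie under exons of another gene, for 11 of them on the opposite strand. Counts of these 11 are uncertain because it is not known whether counting used strand. Where exons overlap on the same strand, a read may belong to either gene, so those counts are uncertain as well.

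Genes of S phase were lower with carnosine to a like median, but did not share the difference between the carnosine replicates. Of 20 such genes, all tested, 11 fell (against 4.36% of all genes) and 0 rose (against 3.95%). All 20 lay below 0, and the median log2 fold change was -0.54. Their median log2 ratio between carnosine replicates 1 and 2 was -0.02, against -0.57 for the histone genes, and that between control replicates 1 and 2 was 0.10, against 0.20. Without carnosine replicate 1 the S phase median was -0.54, while the histone median was -0.19. Leaving out control replicate 1 or 2 gave S phase medians of -0.46 and -0.59. Fewer genes then passed the threshold, both among the S phase genes and over all genes. CCNE1 and CCNE2, the E cyclins that act with CDK2, had 7.95 and 6.57 CPM with carnosine and 13.2 and 13.7 CPM without it, and 11.1 and 9.15 CPM with carnosine and 20.1 and 18.1 CPM without it. CDC25A, the phosphatase that activates CDK2, had 31.8 and 31.1 CPM with carnosine and 53.9 and 52.4 CPM without it. In all 3 the groups were far apart compared with the gap within a group. Their log2 fold changes were -0.89 ± 0.15, -0.91 ± 0.15 and -0.76 ± 0.09 (SE; edgeR adjusted p 0.0123 to 0.0224), and without control replicate 2 CCNE1 did not pass (adjusted p = 0.0564). The part of these genes, or of the share of cells in S phase, in the histone values was not tested.

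Of 22 tested genes for histone gene activation and 3′ end formation, 2 fell (against 4.36% of all genes) and 0 rose (against 3.95%). The median log2 fold change was -0.14. SLBP, which binds the stem-loop, had 63.2 and 66.4 CPM in the carnosine libraries, against 87.2 and 92.3 CPM in the controls. It fell in both carnosine libraries relative to both controls, with a log2 fold change of -0.47 ± 0.10 (SE; edgeR adjusted p = 0.0336). The call was lost without carnosine replicate 1, control replicate 1 or control replicate 2 (adjusted p = 0.0678, 0.0990 and 0.187). CSTF2, a cleavage factor shared with the poly(A) machinery, had 30.5 and 27.5 CPM in the carnosine libraries, against 39.7 and 40.7 CPM in the controls. Its log2 fold change was -0.47 ± 0.10 (SE; edgeR adjusted p = 0.0419), lost with scaling by total counts (adjusted p = 0.0754) and without carnosine replicate 2 or either control (0.0839 to 0.188). NPAT had 18.0 and 19.4 CPM in the carnosine libraries, against 20.8 and 24.2 CPM in the controls. Its groups did not overlap, and its log2 fold change of -0.27 ± 0.12 (SE) did not pass (edgeR adjusted p = 0.220). RNU7-1, the gene of the U7 RNA, had 0 counts in all 4 libraries, which does not show that this RNA was absent. Whether these libraries capture such small RNAs was not tested.

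Histone chaperones carry histones to DNA, and 4 of the 20 tested fell (against 4.36% of all genes) while 1 rose (against 3.95%). The median was -0.10 on the log2 scale. CHAF1A and CHAF1B, subunits of CAF-1, which places H3 and H4 on newly copied DNA, had 57.0 and 52.4 CPM with carnosine and 86.9 and 84.5 CPM without it, and 34.0 and 26.4 CPM with carnosine and 55.6 and 53.7 CPM without it. MMS22L, which acts at stalled forks, had 42.6 and 40.3 CPM with carnosine and 62.9 and 59.6 CPM without it. UBN1, of the HIRA complex that deposits H3 outside replication, had 219 and 232 CPM with carnosine and 151 and 146 CPM without it. None of these 4 overlapped between groups, with 3 lower and UBN1 higher. Their log2 fold changes were -0.65 ± 0.10, -0.86 ± 0.13, -0.56 ± 0.09 and 0.60 ± 0.10 (SE; edgeR adjusted p 0.0170 to 0.0218), and MMS22L and UBN1 did not pass without either control (adjusted p 0.0611 to 0.129).

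Replacement histone genes, which are transcribed outside S phase as well, had a median of -0.10 on the log2 scale. Of 11 tested, 0 fell in edgeR (against 4.36% of all genes) or limma-voom (against 4.25%), and 1 in DESeq2 (against 7.1%). In edgeR 2 rose (against 3.95%), both H1 genes. H1F0, the linker histone of resting and differentiated cells, had 140.3 and 135 CPM in carnosine replicates 1 and 2, against 65.6 and 79.9 CPM in control replicates 1 and 2. H1FX had 112 and 112 CPM in the carnosine libraries, against 79.9 and 71.7 CPM in the controls. Neither overlapped between groups, and the log2 fold changes were 0.92 ± 0.12 and 0.56 ± 0.10 (SE; edgeR adjusted p = 0.0144 and 0.0265), with H1FX lost without control replicate 1 or 2 (adjusted p = 0.0602 and 0.169). H2AFZ had 332 and 378 CPM with carnosine and 441 and 468 CPM without it, and H3F3B 304 and 361 CPM with carnosine and 403 and 422 CPM without it. H3F3A had 91.3 and 102 CPM with carnosine and 102 and 105 CPM without it. These 3 had both carnosine libraries under both controls and did not pass, with log2 fold changes of -0.35 ± 0.12, -0.31 ± 0.12 and -0.10 ± 0.10 (SE; edgeR adjusted p = 0.108, 0.164 and 0.597), and H2AFZ passed in DESeq2 (adjusted p = 0.0469). H2AFX, whose mRNA can end in a stem-loop or a poly(A) tail, had 50.0 and 46.8 CPM with carnosine and 68.0 and 47.8 CPM without it, with overlap, and a log2 fold change of -0.26 ± 0.17 (SE), which was 0.01 without control replicate 1.

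Of 4 tested histone genes whose symbols fall outside the pattern, 0 passed the edgeR test, with 1 (HIST3H2A) at an unadjusted p under 0.05, 0 passed with DESeq2 or limma-voom, and the median log2 fold change was -0.38. HIST4H4, a lone H4 gene, had 55.8 and 81.6 CPM with carnosine and 83.3 and 84.4 CPM without it, and HIST3H2A, beside HIST3H2BB, had 18.5 and 21.4 CPM with carnosine and 16.6 and 14.5 CPM without it. HIST4H4 was lower and HIST3H2A higher in both carnosine libraries than in both controls, at -0.29 ± 0.17 and 0.36 ± 0.13 (SE; edgeR adjusted p = 0.336 and 0.143). Over all 4, which include HIST2H2AA3 and HIST2H2AA4, the median log2 ratio between carnosine replicates 1 and 2 was -0.40.

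**Figure D5:**
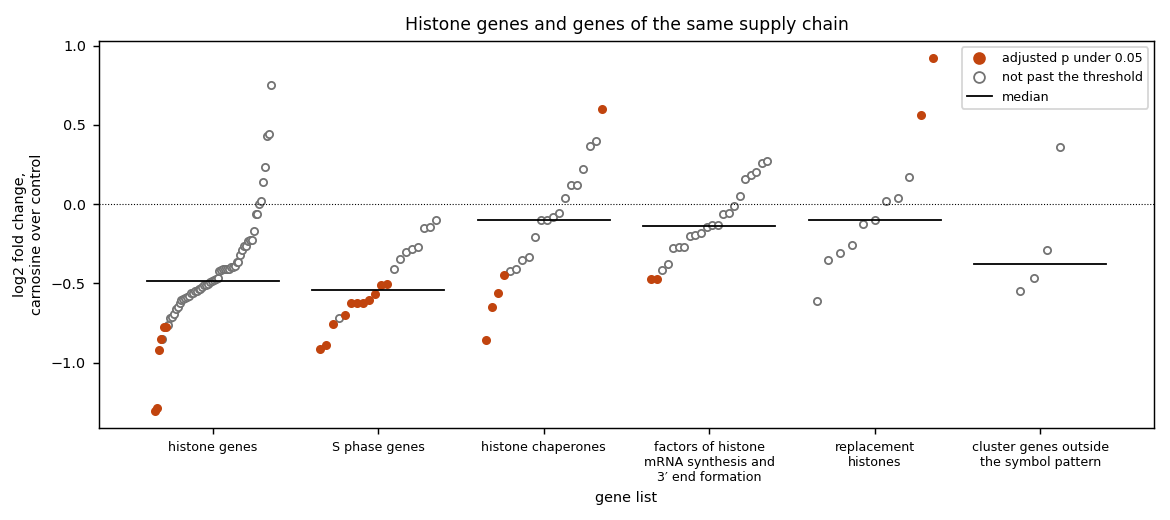
Log2 fold change, carnosine over control, of the tested genes of each list (points), with the list's median (line); filled points passed the adjusted threshold. Histone genes and S phase genes have medians of -0.48 and -0.54 with 6 of 62 and 11 of 20 past the threshold, against 8.31% of all genes. The medians of chaperones, 3′ end factors and replacement histones lie between -0.14 and -0.10, and the 2 replacement histone genes past the threshold are above 0.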

How the data were processed

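RNA of 4 U87 libraries was sequenced as stranded, paired total RNA. The authors deposited raw counts per gene, whole numbers without normalization. The submitters' processing notes name hg38, HTSeq 0.6.1 (counting), HISAT2 2.1.0 (alignment) and bcl2fastq 2.17.0. Not given in the sources used here are the annotation release, the strand setting and the treatment of reads with several matches, which may be dropped or shared between similar histone genes. Low genes were removed with filterByExpr (minimum count 10 in 2 libraries, total 15). Libraries were scaled by TMM, and 16340 genes were tested two-sided in edgeR 4.0.16 (quasi-likelihood F test on group alone, 2 residual degrees of freedom, R 4.3.3) with Benjamini-Hochberg adjustment. The approximate SE is the absolute log2 fold change over the square root of F. Alternatives were DESeq2 1.42.0, limma-voom (limma 3.58.1), other scalings and filters, a replicate block and leaving out each library. Members with a mean count of at least 10 were named, with up to 4 passing genes of each companion list, of which 1 S phase gene is not reported here. Members and lists were chosen with earlier results of these data known. Counts of replicates differed beyond sampling noise (chi-square over degrees of freedom 39.7 with carnosine and 25.7 without it). Limits on counts of 0 cover counting error only. Scripts were tested on simulated data.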

Additional observations from a re-analysis of the deposited data

How the results depend on the processing

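With 2 libraries a group, the count of calls depended on the test and on single libraries more than on scaling. Other scalings, a mean count of at least 10 and limma-voom left 6 or 7 histone genes called lower. Without a filter on low counts 3145 genes were called, 38 histone genes lower and 1 higher, and with DESeq2 2187 genes, 19 lower and 1 higher. The replicate block gave 5767 genes, 50 histone genes lower (80.6%, against 18.3% of all genes) and 2 higher (3.23%, against 17%). The replicate numbers share nothing stated in the labels beyond the number, and the correlation of the difference between replicates 1 and 2 across groups, over all tested genes, was 0.31. Leaving out each library in turn gave 505 to 1595 genes called, 3 to 42 histone genes lower, 0 to 1 higher and medians of -0.82 to -0.19, the extremes of calls being those without carnosine replicate 2 (42) and without control replicate 1 (3). The cause of these shifts was not tested. Of the 6 genes that fell, all remained called under every scaling, filter, test and the block, 5 without carnosine replicate 1 and 3 without control replicate 1.

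The direction of HIST1H1E, near 0, turned with some other scalings, filters and tests. Without a single library, directions also turned for abundant genes whose groups overlapped. Among these were HIST1H2BE and HIST1H4C, with log2 fold changes of -0.42 and -0.29 with all 4 libraries. HIST1H1E had 0.0047 with DESeq2's size factors in edgeR, 0.014 with upper-quartile factors, 0.014 with total counts, 0.00080 with a mean count of at least 10 and 0.0047 in DESeq2. Leaving out single libraries gave ranges across 0 for genes whose groups overlapped: HIST1H1C -0.37 to 0.18, HIST1H1D -0.58 to 0.15, HIST1H1E -0.31 to 0.25, HIST1H2AC -0.39 to 0.20, HIST2H2AC -0.47 to 0.0624, HIST1H2BC -0.67 to 0.11, HIST1H2BD -0.62 to 0.0204, HIST1H2BE -1.19 to 0.0801, HIST2H2BA -0.43 to 0.62, HIST2H2BB -0.0587 to 0.82, HIST1H3E -0.0718 to 0.32, HIST1H4C -0.66 to 0.000588, HIST1H4L -1.42 to 2.49, HIST2H4A -2.79 to 1.24. H2AFX ranged from -0.49 to 0.0132. The other single-gene values kept their direction. Depth of 51632970 counts or more a library did not limit abundant genes, whereas HIST1H1T, with 9 to 16 counts, had an SE of 0.55. HIST1H4L and HIST2H4A, which differed several-fold between libraries of the same group, had SEs of 1.0 and 0.99.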
